A study of Mus musculus with 19 samples.

Results

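The genes described here encode the basement membrane of blood vessels and the integrins that bind it. They are 39 genes, chosen by name with earlier results of these data known. They cover the type IV and multiplexin collagens, laminin chains, nidogens, proteoglycans, glycoproteins attached to the sheet or its fibres, and cell-surface matrix receptors. Each of the 39 had 1 probe set with a single gene symbol on the array, out of 19938 genes so named. RNA came from endothelial cells that were sorted out of lymphoid organs of BALB/c mice, which are inbred, at 6 to 8 weeks of age, with males and females in equal parts in each sample. High endothelial cells (HEC), which line the venules where lymphocytes leave the blood, were measured on 11 arrays and capillary endothelial cells on 8. There were 4 HEC and 3 capillary arrays from peripheral lymph nodes and 3 of each from Peyer's patches, which are gut lymphoid tissue. From mesenteric lymph nodes there were 2 capillary arrays and 4 HEC arrays, 2 of them sorted as MAdCAM1+/PNAd+ and 2 as MAdCAM1+. MAdCAM1 is an adhesion molecule of gut venules, and PNAd is the sugar epitope bound by L-selectin. No altered allele or treatment appears in the labels, and gates are given there only for the mesenteric HEC.

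Basement membranes are thin protein sheets on which endothelium rests. Laminins, each a trimer of an alpha, a beta and a gamma chain, and type IV collagen form separate networks, which nidogens and the heparan sulfate proteoglycan perlecan link. Endothelial cells make laminins with the alpha 4 or the alpha 5 chain, and in venules the local balance of these chains is known to affect where leukocytes cross. Integrins, each a pair of an alpha and a beta chain, hold the cell to the sheet: alpha 1 beta 1 and alpha 2 beta 1 bind collagens, and alpha 3 beta 1, alpha 6 beta 1 and alpha 6 beta 4 bind laminins. High endothelial venules have a thick basement membrane, wrapped by pericytes and fibroblastic reticular cells.

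Sequence windows at the start sites of some of these genes are shown because the pairs of genes concerned moved together or apart in the data below. Itga1 and Itga2, which encode the collagen-binding integrin chains, are neighbouring genes on chromosome 13, on the same strand, and differed in opposite directions between the cell types. Npnt, which encodes the integrin ligand nephronectin, was at least 2-fold lower in HEC, as Itga1 was. The sequences are from RefSeq, on build GRCm38.p6, 5′ to 3′ on the gene's strand. Each holds the 250 bases before the gene's outermost annotated start. Capitals mark an ETS core (GGAAG) or a GC box (GGGCGG) read on either strand, the first being the core bound by ETS factors, a family that includes Erg, and the second the site of Sp1. The windows lie at chr13:115101965-115102214 (minus strand) for Itga1, chr13:114932101-114932350 (minus strand) for Itga2 and chr3:132950292-132950541 (minus strand) for Npnt.
Itga1: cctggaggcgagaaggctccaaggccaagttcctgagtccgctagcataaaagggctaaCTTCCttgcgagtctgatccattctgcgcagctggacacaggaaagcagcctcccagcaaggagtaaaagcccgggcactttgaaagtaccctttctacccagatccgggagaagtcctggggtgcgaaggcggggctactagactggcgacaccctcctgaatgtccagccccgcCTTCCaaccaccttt
Itga2: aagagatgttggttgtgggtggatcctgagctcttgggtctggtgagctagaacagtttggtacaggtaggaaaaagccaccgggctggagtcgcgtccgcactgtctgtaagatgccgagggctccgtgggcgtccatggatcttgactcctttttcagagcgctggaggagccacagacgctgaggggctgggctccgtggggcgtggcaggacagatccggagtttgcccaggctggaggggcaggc
Npnt: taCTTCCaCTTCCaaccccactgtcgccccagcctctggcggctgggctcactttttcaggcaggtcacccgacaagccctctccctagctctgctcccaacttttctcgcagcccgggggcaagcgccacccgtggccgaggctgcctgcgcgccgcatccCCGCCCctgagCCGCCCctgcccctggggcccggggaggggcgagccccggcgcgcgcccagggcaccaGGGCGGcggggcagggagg
The Itga1 window held 2 ETS cores, at 191 to 187 and 15 to 11 bases before the start, and the Itga2 window held neither motif. The Npnt window held 2 ETS cores, at 248 to 244 and 242 to 238 bases before the start, and 3 GC boxes. The window at the other annotated Npnt start, not shown, held neither motif. Of all 32851 such windows, 64.1% held GGAAG and 32.7% held GGGCGG, so a match is common and says nothing of binding.

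Col4a1 and Col4a2 lie head to head on chromosome 8 and are transcribed in opposite directions. They are shown because both chains were lower in HEC by a like amount. The stretch at chr8:11312805-11312826 (GRCm38.p6, plus strand) runs from the start of Col4a2 to an annotated start of Col4a1. From these starts the genes are read toward each other, so the stretch lies within both transcripts and not before either start. A GC box in it is in capitals.
Col4a1/Col4a2: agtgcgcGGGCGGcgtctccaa
The host gene Egfl7 and the miRNA within it, Mir126a, differed in how they moved, so the mature miRNA is shown too (RefSeq, chr2:26591402-26591423, plus strand), with its seed, bases 2 to 8, in capitals.
mmu-miR-126a-3p: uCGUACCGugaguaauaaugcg

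The deposited values were log2 signals that had been centred for each probe set on a baseline not given in the sources used here. A value of 0 is therefore that baseline and not absence, values of different genes cannot be ranked, and detection is unknown. The number of arrays sets the precision, and the labels do not tell whether replicates were separate mice or separate sorts. The p-values therefore measure only how far these samples spread, and that spread may be technical. In RNA from sorted pools, fewer cells of a type and less RNA per cell cannot be told apart. The labels fitted the marker genes: 7 of 7 high endothelial genes were higher in HEC (Madcam1 by 4.95 ± 0.13, ± SE) and 7 of 7 capillary genes were lower (Cd36 by -5.20 ± 0.18). Over all genes 18.0% were higher and 15.9% lower at an adjusted p of 0.05. Pecam1, carried by all endothelium, differed by -0.06 ± 0.06 (adjusted p = 0.503). Cdh5, also carried by all endothelium, was lower in HEC, at -0.37 ± 0.05 (adjusted p = 6.26e-06). Of 11 such genes 8 were lower, with a median of -0.45. Peripheral capillary arrays 1 and 2 stood apart from array 3 over the high endothelial genes, with list means of 1.19 and 1.00 against 0.17. Some, but not all, of the results that use these arrays are also given without both.

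The question of which basement membrane genes separate high from capillary endothelium was addressed by the difference HEC minus capillary, as the mean of the 3 tissues with equal weight. Most of the 39 genes had lower RNA signal in HEC. Lowest were those of the laminin chain Lama4, fibronectin (Fn1), the nidogen Nid2 and the laminin chain Lama3. Protein in the sheet was not measured. Of the 39 genes, 27 passed an adjusted p of 0.05, hereafter called, in a fit where 33.9% of all genes were called. Of these, 22 were lower (15.9% of all genes) and 5 were higher (18.0% of all genes). At least 2-fold lower were 10 (2.31% of all genes) and at least 2-fold higher was 1 (2.26% of all genes). The median difference of the 39 was -0.48 log2, against -0.01 over all genes. The genes were chosen with earlier results known, so the shares of all genes describe the list and do not test it. For 15 of the 39, all HEC arrays lay below all capillary arrays (4.45% of all genes), and for 0 did they all lie above (4.36% of all genes), which together are 15 against 8.82% of all genes. Of the 27 calls, 26 held in each of the 31 alternative analyses that could test them, and the exception is Lama2, below.

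**Figure D1:**
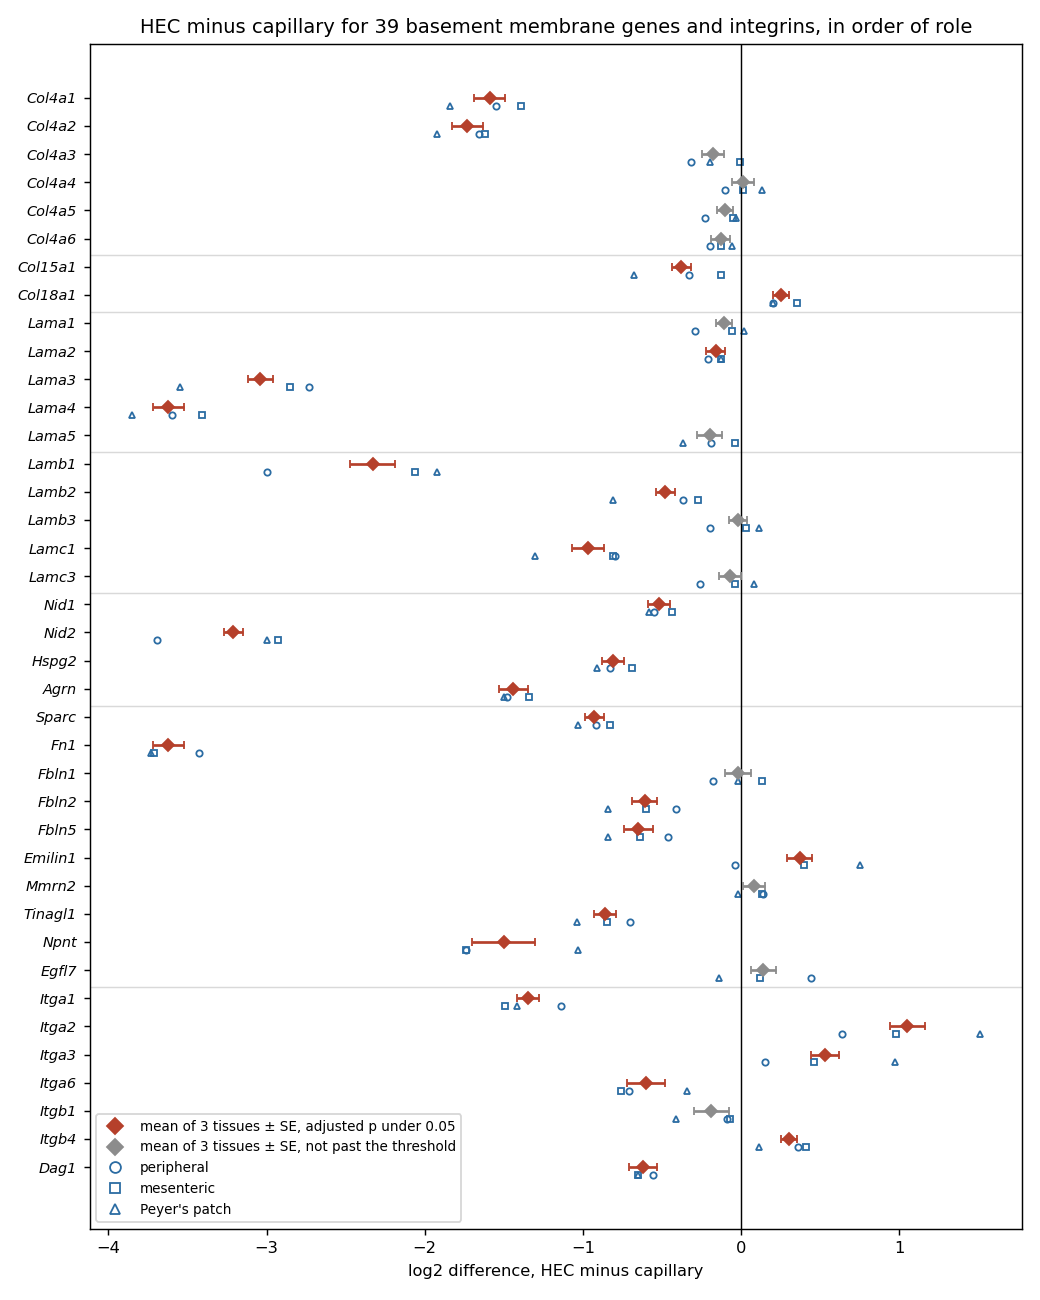
Difference in log2 signal, HEC minus capillary, on the horizontal axis for each of the 39 genes in order of role (collagens at the top, receptors at the bottom). Diamonds show the mean of 3 tissues with its SE, in red where the adjusted p was under 0.05, and open symbols show each tissue. Lama4, Fn1, Nid2 and Lama3 lie farthest to the left, at -3.62 to -3.04, and Itga2 at 1.05 is farthest to the right.

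Among the collagens, the 2 chains of the ubiquitous type IV network were lower (15.9% of all genes) and the other 4 did not pass. Col4a1 ran from 1.01 through a median of 1.34 to 1.59 on the capillary arrays and from -0.55 through -0.30 to 0.22 on the HEC arrays. The groups did not overlap, and the difference was -1.59 ± 0.10 log2, or 3.02-fold lower in HEC (adjusted p = 4.48e-10). Its partner chain Col4a2 gave capillary values of 1.00, 1.33 and 1.57 (lowest, median, highest) and HEC values of -0.79, -0.47 and 0.02. It was lower by a similar amount, -1.73 ± 0.10 log2 or 3.33-fold (adjusted p = 4.13e-10). The chains Col4a3, Col4a4, Col4a5 and Col4a6, which build the networks of kidney and other specialised membranes, differed by -0.18 to 0.01 and stayed within -0.36 to 0.31 on every array. Each varied over the arrays by less than 0.77, the range within which 95% of 1194 odorant and vomeronasal receptor genes stayed.

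The multiplexin collagens, which carry heparan sulfate or chondroitin sulfate chains and release endostatin-like fragments, went apart. Col18a1, the source of endostatin, was higher in HEC by 0.25 ± 0.05 (adjusted p = 0.000834), with capillary values of -0.32 to 0.21 and HEC values of -0.12 to 0.51, which overlap. Col15a1 was lower, at -0.38 ± 0.06 (adjusted p = 5.48e-05), with capillary values of 0.17 to 0.80 and HEC values of -0.15 to 0.22.

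Of the 5 laminin alpha chains, 3 had lower signal in HEC (15.9% of all genes), while 2 did not pass. Lama4, the alpha chain of the main endothelial laminin, gave 0.11, 0.76 and 1.14 on the capillary arrays (lowest, median, highest) and -3.24, -2.97 and -2.54 on the HEC arrays. All HEC arrays thus lay far below all capillary arrays, by -3.62 ± 0.10 log2 or 12.3-fold (adjusted p = 2.11e-14). Lama3, an alpha chain best known from the laminin of skin, gave 2.54, 2.90 and 3.28 on the capillary arrays and -0.56, -0.06 and 0.29 on the HEC arrays. Its difference was -3.04 ± 0.08 or 8.25-fold (adjusted p = 5.34e-15).

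The alpha 5 chain showed a small difference that did not pass. Lama5 gave 0.00, 0.34 and 0.43 on the capillary arrays and -0.18, 0.05 and 0.48 on the HEC arrays, and the groups overlapped. Its difference was -0.20 ± 0.08 (adjusted p = 0.0742, two-sided). Lama5 varied over the arrays by 0.659, which is within the 0.77 given above for receptor genes, as did Lama1, Lama2, Lamb3, Lamc3, Fbln1 and Mmrn2. For these genes, as for Col4a3 to Col4a6, whether the probe set measured the transcript is unknown, so a small difference does not show an unchanged level. Taken within each array, Lama4 minus Lama5 ran from 0.02 through a median of 0.43 to 0.80 on the capillary arrays and from -3.59 through -3.12 to -2.43 on the HEC arrays. Since both genes are centred, this is a difference in how they vary and not a ratio of their levels, it comes almost wholly from Lama4, and the pair was chosen after the values were seen. Lama1, an embryonic and epithelial chain, was nearest to 0 of the alpha chains at -0.11 ± 0.05 and did not pass. Lama2, the chain of muscle and of some vessel walls, was called by a narrow margin at -0.16 ± 0.06 (adjusted p = 0.0499). Leaving out any of 13 single arrays ended that call, with differences of -0.18 to -0.13 and adjusted p up to 0.114.

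Of the beta and gamma chains, the 3 that pair with alpha 4 and alpha 5 in vessels were lower (15.9% of all genes). Lamb1 gave 0.73, 1.57 and 2.15 on the capillary arrays and -1.80, -1.24 and 0.11 on the HEC arrays. The highest HEC value was still below the lowest capillary value, and the difference was -2.33 ± 0.14 or 5.02-fold (adjusted p = 3.99e-10). Lamc1, the common gamma chain, was lower, at -0.97 ± 0.10 or 1.96-fold (adjusted p = 5.54e-07), with capillary values of -0.06 to 0.91 and HEC values of -0.88 to 0.10. Lamb2 was lower, at -0.48 ± 0.06 (adjusted p = 9.55e-06). Lamb3, the partner of the alpha 3 chain in that laminin, was nearest to 0 at -0.02 and did not pass, nor did Lamc3 at -0.07.

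All 4 nidogens and proteoglycans were lower in HEC without overlap of the groups (4.45% of all genes). Nid2, a nidogen rich in endothelial basement membranes, gave 0.96, 1.28 and 1.96 on the capillary arrays and -2.02, -1.87 and -1.57 on the HEC arrays. Its difference of -3.21 ± 0.06 or 9.23-fold had the lowest adjusted p of the 39 genes (4.08e-16). Nid1, the ubiquitous nidogen, was lower by much less, at -0.52 ± 0.07 (adjusted p = 1.14e-05), with capillary values of 0.09 to 0.60 and HEC values of -0.51 to 0.00. Within each array Nid2 minus Nid1 ran from 0.64 through 1.08 to 1.81 on the capillary arrays and from -1.91 through -1.61 to -1.30 on the HEC arrays. Agrn, which encodes the heparan sulfate proteoglycan agrin, gave 1.05, 1.27 and 1.58 on the capillary arrays and -0.46, -0.14 and 0.30 on the HEC arrays, a difference of -1.44 ± 0.09 (adjusted p = 1.08e-09). Hspg2, the gene of perlecan, was lower, at -0.81 ± 0.07 (adjusted p = 7.79e-08), with capillary values of 0.80 to 1.13 above HEC values of -0.06 to 0.44.

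**Figure D2:**
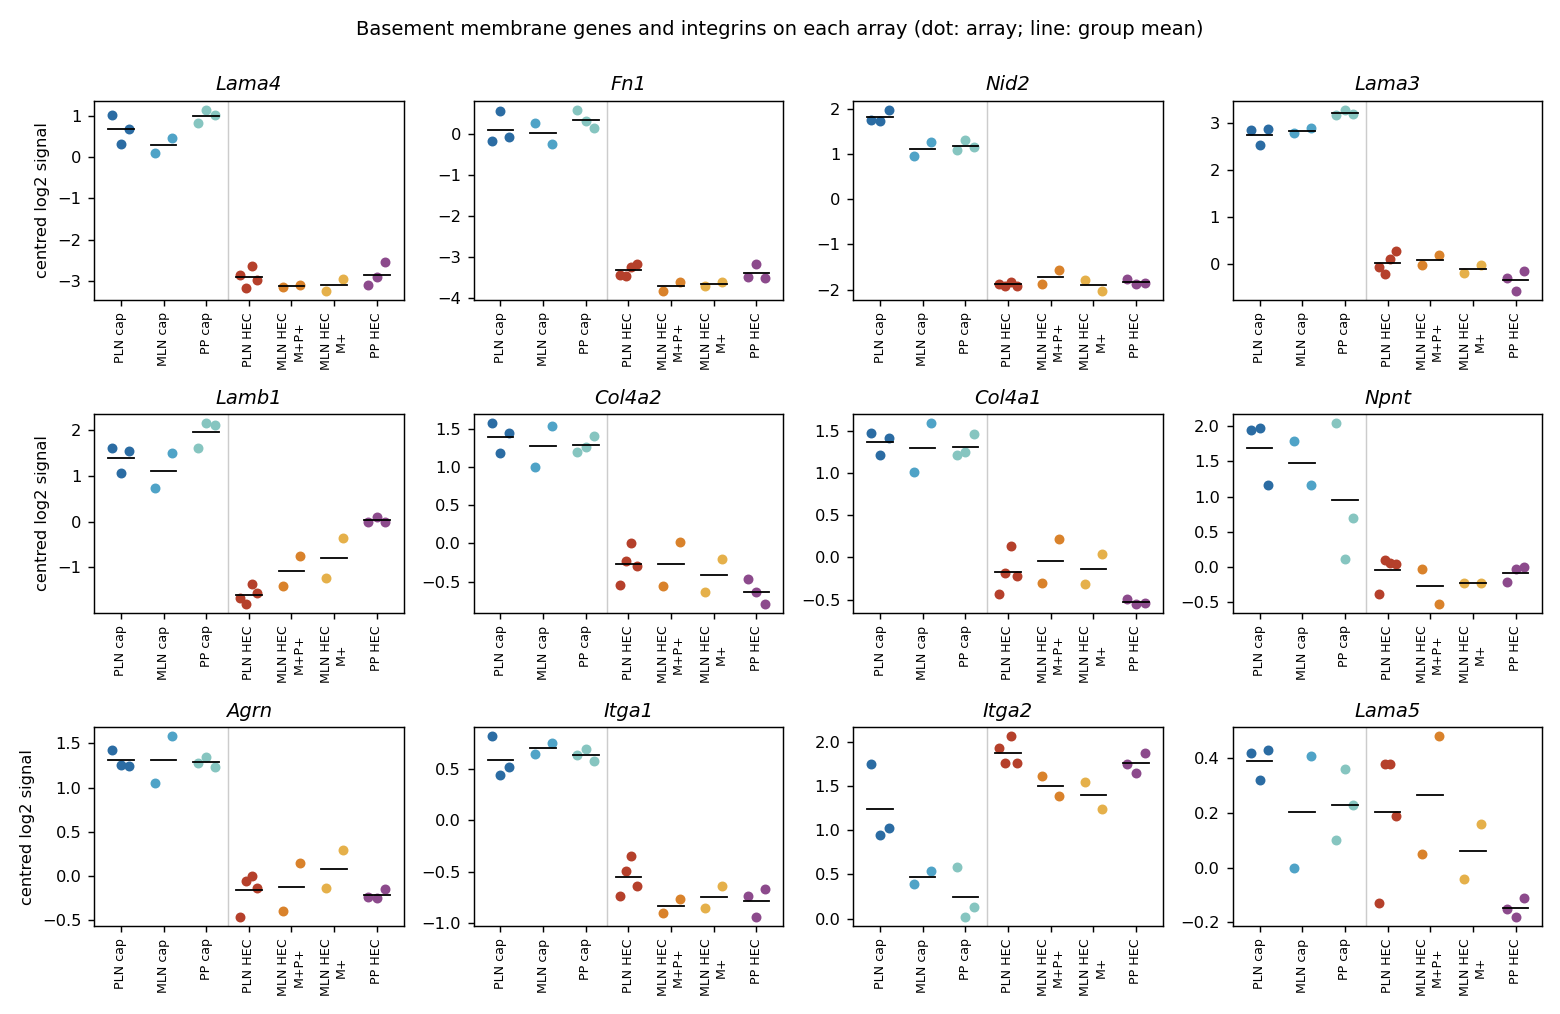
Centred log2 signal of 12 genes, with 1 dot for each array and a line at the group mean. PLN stands for peripheral lymph node, MLN for mesenteric lymph node, PP for Peyer's patch, cap for capillary, M+P+ for MAdCAM1+/PNAd+ and M+ for MAdCAM1+. Capillary groups are left of the grey line: the 10 genes from Lama4 to Itga1 lie higher there, Itga2 lies lower there apart from peripheral capillary array 1 at 1.75, and Lama5 overlaps.

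Of the 10 glycoproteins attached to the sheet or its fibres, 6 were lower (15.9% of all genes), 1 was higher (18.0%) and 3 did not pass. Fn1, the gene of fibronectin, gave -0.23, 0.20 and 0.58 on the capillary arrays and -3.82, -3.48 and -3.16 on the HEC arrays. The groups were far apart, by -3.62 ± 0.10 or 12.3-fold (adjusted p = 2.1e-14). Npnt, whose product nephronectin is a ligand of integrin alpha 8 beta 1, gave 0.11, 1.48 and 2.04 on the capillary arrays and -0.52, -0.03 and 0.10 on the HEC arrays. It was lower, at -1.50 ± 0.20 or 2.83-fold (adjusted p = 9.82e-06), but its capillary values spread widely, and Peyer's patch capillary array 2 at 0.11 reached almost to the highest HEC array.

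The other genes of the group differed by less. Sparc, which encodes a collagen-binding matricellular protein, was lower, at -0.93 ± 0.06 (adjusted p = 1.03e-09). Tinagl1, a matricellular protein of basement membranes, was lower, at -0.86 ± 0.07 (adjusted p = 4.53e-08). The fibulins Fbln5, which takes part in elastic fibre assembly, and Fbln2 were lower, at -0.65 ± 0.09 and -0.61 ± 0.08 (adjusted p = 2.07e-05 and 4.15e-06), and their HEC values differed between tissues or gates. With only the MAdCAM1+ arrays as mesenteric HEC, Fbln2 differed by -0.40. Emilin1, an elastic fibre glycoprotein, was higher in HEC by 0.37 ± 0.08 (adjusted p = 0.00195). Within single tissues Emilin1 was called higher only in Peyer's patches. In mesenteric nodes 0 of these 10 genes were called higher, at differences of up to 0.40. The interaction of Peyer's patches with mesenteric nodes called 0 of the 10, so the rise is not shown to be particular to Peyer's patches. Fbln1 (-0.02), the endothelial glycoprotein gene Mmrn2 (0.08) and Egfl7 (0.14), which encodes a factor secreted by endothelium, did not pass.

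The miRNA host gene Egfl7 and Mir126a, a miRNA of endothelial cells, were compared after their values were seen. Mir126a gave 0.21, 1.11 and 1.39 on the capillary arrays and -0.30, -0.10 and 0.16 on the HEC arrays. It was lower in HEC, at -1.11 ± 0.12 (adjusted p = 1.25e-06), with Peyer's patch capillary array 3 as the capillary array at 0.21. Egfl7 on the same arrays ran from -0.20 to 0.50 in capillary cells and from -0.30 to 0.65 in HEC. Such a probe set can read the primary transcript and the hairpin, so its value is not a level of the mature miRNA printed above.

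Among the receptors, the collagen-binding integrin chains went in opposite directions. Itga1, the alpha 1 chain, gave 0.44, 0.64 and 0.82 on the capillary arrays and -0.94, -0.74 and -0.35 on the HEC arrays. It was lower in HEC, at -1.35 ± 0.07 or 2.56-fold (adjusted p = 4.31e-11). Itga2, the alpha 2 chain encoded by the neighbouring gene, gave 0.02, 0.56 and 1.75 on the capillary arrays and 1.24, 1.75 and 2.06 on the HEC arrays. It was higher by 1.05 ± 0.11 or 2.07-fold (adjusted p = 3.85e-07), and the groups overlapped only through peripheral capillary array 1. Itga2 minus Itga1 within each array ran from -0.68 through -0.14 to 0.93 on the capillary arrays and from 1.87 through 2.41 to 2.67 on the HEC arrays, again a difference in variation and not of levels.

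The laminin-binding chains were likewise divided. Itga3 was higher by 0.53 ± 0.09 (adjusted p = 0.000117) and Itgb4 by 0.30 ± 0.05 (adjusted p = 0.000159), each with overlap of the groups. Itga6, the partner of Itgb4, was lower, at -0.60 ± 0.12 (adjusted p = 0.000459), with capillary values of 0.31 to 0.82 and HEC values of -0.55 to 0.51. Dag1, which encodes dystroglycan, a laminin and perlecan receptor, was lower, at -0.62 ± 0.09 (adjusted p = 2.13e-05), with capillary values of -0.10 to 0.54 above HEC values of -0.63 to -0.25. Itgb1, the beta chain shared by alpha 1, alpha 2, alpha 3 and alpha 6, differed by -0.19 ± 0.11 and did not pass. Its values of -0.49 to 0.28 in capillary cells and -0.57 to 0.03 in HEC overlapped.

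**Figure D3:**
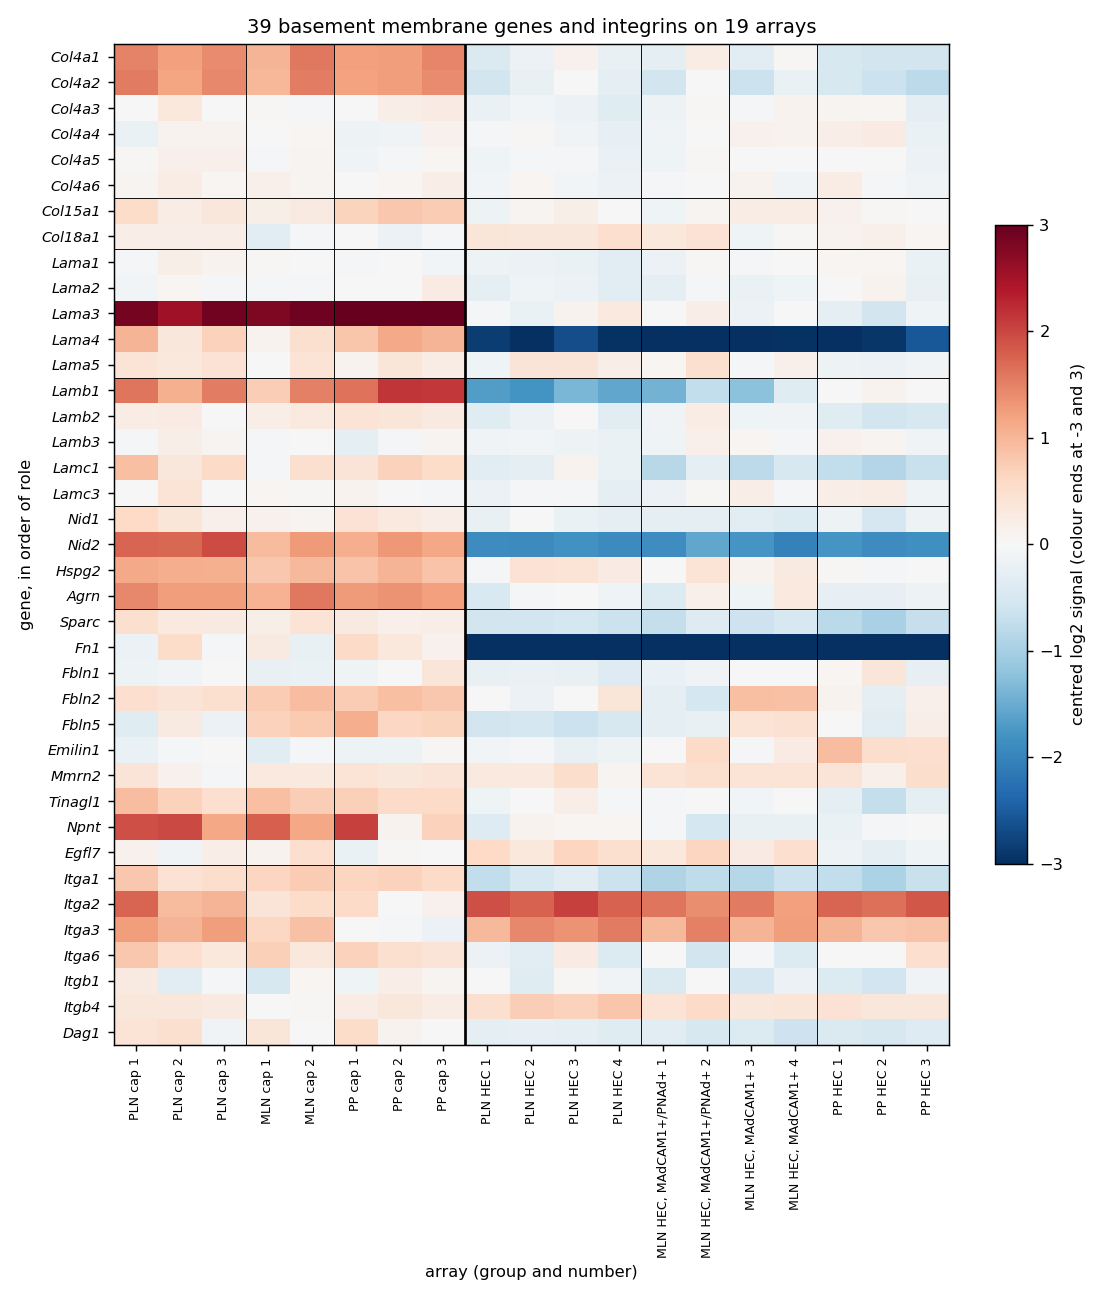
Centred log2 signal of the 39 genes (rows, in order of role) on the 19 arrays (columns, named by tissue, cell type and number, with PLN, MLN and PP for peripheral node, mesenteric node and Peyer's patch). Colour runs from blue for low to red for high and ends at 3 below and above 0; the thick line parts 8 capillary arrays from 11 HEC arrays. Rows such as Lama3, Lama4, Nid2 and Fn1 change colour at that line on every array, while the rows Col4a3 to Col4a6 stay pale.

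Pericyte and smooth muscle markers were read in the same comparison, where 15.9% of all genes were called lower and 18.0% higher. Of 12 markers of pericytes and smooth muscle, 9 had lower signal in HEC, among them Rgs5 (-2.71 ± 0.14), Acta2 (-1.87 ± 0.13) and Pdgfrb (-1.47 ± 0.14), and 1, Tagln, was higher by 0.92 ± 0.21. The mean of the list was 0.39, 0.98 and 0.35 on the peripheral capillary arrays, 0.39 and 0.47 on the mesenteric ones and 0.15, -0.10 and 0.00 on the Peyer's patch ones, against -0.76 to -0.36 on the HEC arrays. By tissue, the median difference of the list was -1.17 (peripheral), -0.98 (mesenteric) and -0.66 (Peyer's patch). For the 39 genes it was -0.37, -0.27 and -0.58 in that order. Pericytes also make basement membrane. The list mean was lowest among capillary groups in Peyer's patches. Against peripheral capillaries, Nid2 was lower there too (-0.63 ± 0.11, adjusted p = 0.00116), as were Itga2 and Itga3. Fbln5 and Col15a1 were higher there, and Lama4 (0.32 ± 0.18, adjusted p = 0.533), Lamb1 (0.56 ± 0.24, adjusted p = 0.296) and Lama3 (0.46 ± 0.13, adjusted p = 0.0669) did not pass. The part of pericytes in the difference between HEC and capillary cells was not tested.

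Markers of other cells were counted in the same comparison, beside the same 15.9% of all genes called lower and 18.0% called higher. Of 10 fibroblastic reticular markers 1 was higher and 1 lower, with list means of -0.11 to 0.38 in capillary cells and -0.18 to 0.27 in HEC, and Col1a1, Col1a2 and Col3a1, the fibrillar collagens of fibroblasts, differed by -0.15, -0.18 and -0.12 without passing. Of 9 B cell markers 7 were higher in HEC, with list means of 0.18 to 0.79 against -0.14 to 0.14, and of 7 T cell markers 3 were higher. Of 4 platelet markers 1, Pf4, was higher by 1.67 ± 0.13 and 1 was lower, while Itga2b, the platelet integrin chain, differed by 0.07. Of 11 genes carried by all endothelium 8 were lower in HEC, with a median of -0.45, so a lower value in HEC was not particular to matrix genes. Of 5 lymphatic markers 2 were higher, Lyve1 by 3.19 ± 0.22 the most, and 2 lower, Flt4 (-1.49 ± 0.08) and Prox1 (-0.66 ± 0.13). Of 8 myeloid markers 1 was lower, and of 12 intestinal epithelial markers 1 was lower. The part of these cells in the results was not tested.

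Related genes outside the 39 were counted in the same comparison from lists of matrix genes. Over all genes 18.0% were called higher and 15.9% lower. Of 23 genes that fold and crosslink collagen, 7 were higher and 10 lower. At the ends of the list were the collagen galactosyltransferase gene Colgalt2 (-1.90 ± 0.10), the collagen chaperone Serpinh1 (-1.05 ± 0.06), P3h4, whose product takes part in collagen modification in the endoplasmic reticulum (1.07 ± 0.08) and P4hb, a subunit of prolyl 4-hydroxylase (0.52 ± 0.08). Serpinh1, which binds type IV procollagen among others, ran from 0.31 to 0.81 on the capillary arrays and from -0.59 to -0.19 on the HEC arrays.

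Proteases and their inhibitors showed a division within the TIMP family, the inhibitors of matrix metalloproteinases. Of 21 genes 7 were higher and 9 lower. Timp4 was higher by 3.05 ± 0.38, with capillary values of -0.17 to 1.40 and HEC values of 1.39 to 4.94, and Timp1 by 1.95 ± 0.15, with -0.99 to 0.03 against 0.95 to 1.90. Timp2 was higher too, by 1.49 ± 0.07, with -1.08 to 0.42 against 0.63 to 1.26. Among the listed TIMP genes only Timp3, which stays bound in the matrix, was lower, at -1.68 ± 0.10. The protease gene Adamts1 was lower, at -1.23 ± 0.07.

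Of 24 further matrix receptors 6 were higher and 8 lower. The collagen receptor kinase Ddr2 was higher by 2.13 ± 0.12, from -1.21 to 0.00 on the capillary arrays and from 0.99 to 2.01 on the HEC arrays. The integrin chains Itga9 and Itgav were each higher by 0.54, while Itgb5, a partner of Itgav, was lower, at -1.50 ± 0.08 and the syndecan Sdc3 by -1.51 ± 0.10. Of 18 focal adhesion genes, which couple integrins to actin, 2 were higher and 9 lower, led by zyxin (Zyx, -1.34 ± 0.06) and tensin 1 (Tns1, -1.06 ± 0.08). The higher pair was Lims1 (0.39) and Tln2 (0.22).

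Of 38 other matrix proteins of vessels 8 were higher and 17 lower. Tgfbi, an integrin-binding matrix protein, was higher by 2.10 ± 0.11 and tenascin C (Tnc) by 1.95 ± 0.12. The latent TGF-beta binding protein Ltbp4 was lower, at -2.03 ± 0.07 and biglycan (Bgn) by -1.84 ± 0.20. In each of these lists more genes were called lower than higher, and the direction differed between single genes of 1 family.

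The same difference was then taken within each tissue. For peripheral nodes 27 of the 39 genes were called (24.6% of all genes), 3 higher (13.1%) and 24 lower (11.4%). For mesenteric nodes 22 were called (15.2%), 3 higher (7.87%) and 19 lower (7.31%), and for Peyer's patches 23 (19.5%), 3 higher (8.9%) and 20 lower (10.6%). Called lower in each of the 3 tissues were 18 genes (4.82% of all genes). They were Col4a1, Col4a2, Lama3, Lama4, Lamb1, Lamc1, Nid1, Nid2, Hspg2, Agrn, Sparc, Fn1, Fbln2, Fbln5, Tinagl1, Npnt, Itga1 and Dag1. The mesenteric call of Fbln2 is for the mean of both gates, and the MAdCAM1+ gate by itself was not lower. Some of the other calls were lost when single arrays were left out, as given further on. 1 gene, Itga2, was called higher in every tissue (5.07% of all genes), by 0.64 ± 0.17 for peripheral nodes (adjusted p = 0.011), 0.98 ± 0.20 for mesenteric nodes (adjusted p = 0.00153) and 1.51 ± 0.18 for Peyer's patches (adjusted p = 8.28e-06).

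The genes with the lowest differences were nearly the same in the tissues. Fn1 gave -0.17, 0.56 and -0.06 on the peripheral, 0.27 and -0.23 on the mesenteric and 0.58, 0.32 and 0.14 on the Peyer's patch capillary arrays, and -3.82 to -3.16 on every HEC array. It was lower, at -3.43 ± 0.17, -3.71 ± 0.19 and -3.73 ± 0.18 in the 3 tissues in that order. Lama4 gave 1.03, 0.33 and 0.69, then 0.11 and 0.48, then 0.84, 1.14 and 1.02 on the capillary arrays in the same order, and -3.24 to -2.54 on HEC arrays, and was lower, at -3.60 ± 0.17, -3.41 ± 0.19 and -3.85 ± 0.18. Both genes were thus separated in each tissue by a like amount. Nid2 was lower, at -3.69 ± 0.10, -2.93 ± 0.11 and -3.00 ± 0.11, Lama3 by -2.73 ± 0.13, -2.85 ± 0.14 and -3.55 ± 0.13, and Lamb1 by -3.00 ± 0.23, -2.06 ± 0.26 and -1.92 ± 0.24. In Peyer's patches Col4a2, at 1.20, 1.26 and 1.41 against -0.47, -0.64 and -0.79, was also among the 5 lowest, by -1.92 ± 0.18 (adjusted p = 3.68e-07).

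The genes called higher besides Itga2 were not the same from tissue to tissue, and whether they differed is given by the interactions further on. In peripheral nodes they were Egfl7 (0.44 ± 0.12, adjusted p = 0.0146) and Itgb4 (0.36 ± 0.08, adjusted p = 0.00332). Itgb4 gave 0.35, 0.35 and 0.28 on the capillary arrays there and 0.49, 0.74, 0.70 and 0.84 on the HEC arrays. In mesenteric nodes they were Itgb4 (0.41 ± 0.09, adjusted p = 0.00451) and Col18a1 (0.35 ± 0.09, adjusted p = 0.0153). Col18a1 gave -0.32 and -0.04 on the mesenteric capillary arrays, 0.32 and 0.44 on the MAdCAM1+/PNAd+ arrays and -0.12 and 0.03 on the MAdCAM1+ arrays, so that HEC of the second gate overlapped the capillary cells. In Peyer's patches they were Itga3 (0.97 ± 0.15, adjusted p = 0.000126) and Emilin1 (0.75 ± 0.14, adjusted p = 0.000965).

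Without capillary arrays 1 and 2, 14 of the 39 genes were called within peripheral nodes in place of 27, while over all 19938 genes 2655 were called in place of 4897. That fit has 1 peripheral capillary array, which was assumed to vary like the other groups, so calls are lost to the smaller group as well. Among those lost were Npnt (-1.22, adjusted p = 0.105), Nid1 (-0.33, adjusted p = 0.185), Dag1 (-0.20, adjusted p = 0.536) and Itga6 (-0.48, adjusted p = 0.279). Col4a3 (-0.32) and Col4a5 (-0.23) were called lower in peripheral nodes at adjusted p = 0.0476 and 0.0466, and leaving out any of 14 and 12 single arrays ended these calls. Single arrays ended the calls of Lama1, Fbln2 and Fbln5 (any of 3, 3 and 4 arrays), Col15a1 (capillary array 1, -0.24, or HEC array 1, -0.27), Lamb2 (capillary array 2, -0.32), Egfl7 (capillary array 2, 0.35), Itga6 (capillary array 1, -0.57) and Dag1 (capillary array 2, -0.45). Itga2 in peripheral nodes was lost without capillary array 2 (0.49, adjusted p = 0.0851) or 3 (0.54, adjusted p = 0.0671). In Peyer's patches Npnt (-1.03 ± 0.34, adjusted p = 0.0446) was lost without any of 12 arrays, and it differed by -0.48 without capillary array 1.

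In mesenteric nodes, leaving out a capillary array leaves 1, again assumed to vary like the other groups. Over all genes 1791 were then called without array 1 and 2168 without array 2, in place of 3027. Lamc1 (-0.81) was lost without capillary array 2 (-0.55, adjusted p = 0.156), Dag1 (-0.65) without capillary array 1 (-0.48, adjusted p = 0.214) and Npnt (-1.74) without capillary array 1 (-1.42, adjusted p = 0.0763). Fbln2 (-0.60) was lost without capillary array 2 (-0.52, adjusted p = 0.0864). Fbln5 (-0.64) was lost without capillary array 1 (-0.69, adjusted p = 0.0728) or 2 (-0.59, adjusted p = 0.114), and Nid1 (-0.44) without any of 5 arrays. Itgb4 was lost without capillary array 1 (0.39, adjusted p = 0.0663). Col18a1 and Itga6 were each lost without capillary array 1 (0.21 and -0.56, adjusted p = 0.382 and 0.292), MAdCAM1+/PNAd+ array 2 or MAdCAM1+ array 4.

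Whether the difference between HEC and capillary cells itself changed with tissue was tested by interactions. Between Peyer's patches and peripheral nodes 4 of the 39 genes passed (4.05% of all genes), 3 upward (1.69%) and 1 downward (2.37%). Nid2 gave 1.75, 1.72 and 1.96 on the peripheral capillary arrays and 1.08, 1.30 and 1.15 on the Peyer's patch ones, while HEC gave -1.88, -1.91, -1.82 and -1.91 and then -1.76, -1.88 and -1.84. The HEC values overlapped and the capillary values did not overlap, so the interaction was 0.69 ± 0.15 (adjusted p = 0.0115). It held without any single array, at 0.62 to 0.75.

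Lama3 went the other way, with a wider gap in Peyer's patches. It gave 2.86, 2.54 and 2.89 on the peripheral and 3.17, 3.28 and 3.20 on the Peyer's patch capillary arrays, and on HEC arrays -0.06, -0.20, 0.11 and 0.29 and then -0.30, -0.56 and -0.14. The interaction was -0.83 ± 0.18 (adjusted p = 0.0154), and was lost without peripheral capillary array 2 (-0.71, adjusted p = 0.0502) or without peripheral capillary arrays 1 and 2 (-0.70, adjusted p = 0.153). Since Lama3 belongs to epithelial laminin, the intestinal epithelial markers are given beside it. Their list mean was 0.11 to 1.14 on Peyer's patch capillary arrays and 0.36 to 0.79 on Peyer's patch HEC arrays, against -0.25 to 0.12 on the 13 node arrays. The part of epithelial RNA in the Lama3 values was not tested.

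The other interactions were those of Emilin1 and Itga3. Emilin1 gave -0.20, -0.07 and 0.00 on the peripheral and -0.15, -0.16 and 0.04 on the Peyer's patch capillary arrays, and among HEC -0.08, -0.06, -0.23 and -0.16 against 0.93, 0.52 and 0.51. Only Peyer's patch HEC stood high in this set, and the interaction was 0.79 ± 0.20 (adjusted p = 0.0317). Itga3 gave 1.25, 1.02 and 1.26 on the peripheral and 0.00, -0.05 and -0.18 on the Peyer's patch capillary arrays, and among HEC 0.98, 1.43, 1.34 and 1.56 against 1.01, 0.82 and 0.85. Here the Peyer's patch capillary cells stood low, and the interaction was 0.81 ± 0.21 (adjusted p = 0.0344). These calls were lost without any of 7 arrays for Emilin1 (0.65 to 0.86, adjusted p up to 0.0989) and 8 for Itga3 (0.70 to 0.89, adjusted p up to 0.1).

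Between mesenteric and peripheral nodes 1 gene passed (0.416% of all genes), again Nid2, at 0.76 ± 0.15 (adjusted p = 0.0316). Its mesenteric capillary values were 0.96 and 1.27, and the call was lost without any of 8 arrays (0.61 to 0.92, adjusted p up to 0.362). Between Peyer's patches and mesenteric nodes 0 of the 39 passed in the limma fit (0.752% of all genes), where 5 had an unadjusted p under 0.05.

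**Figure D4:**
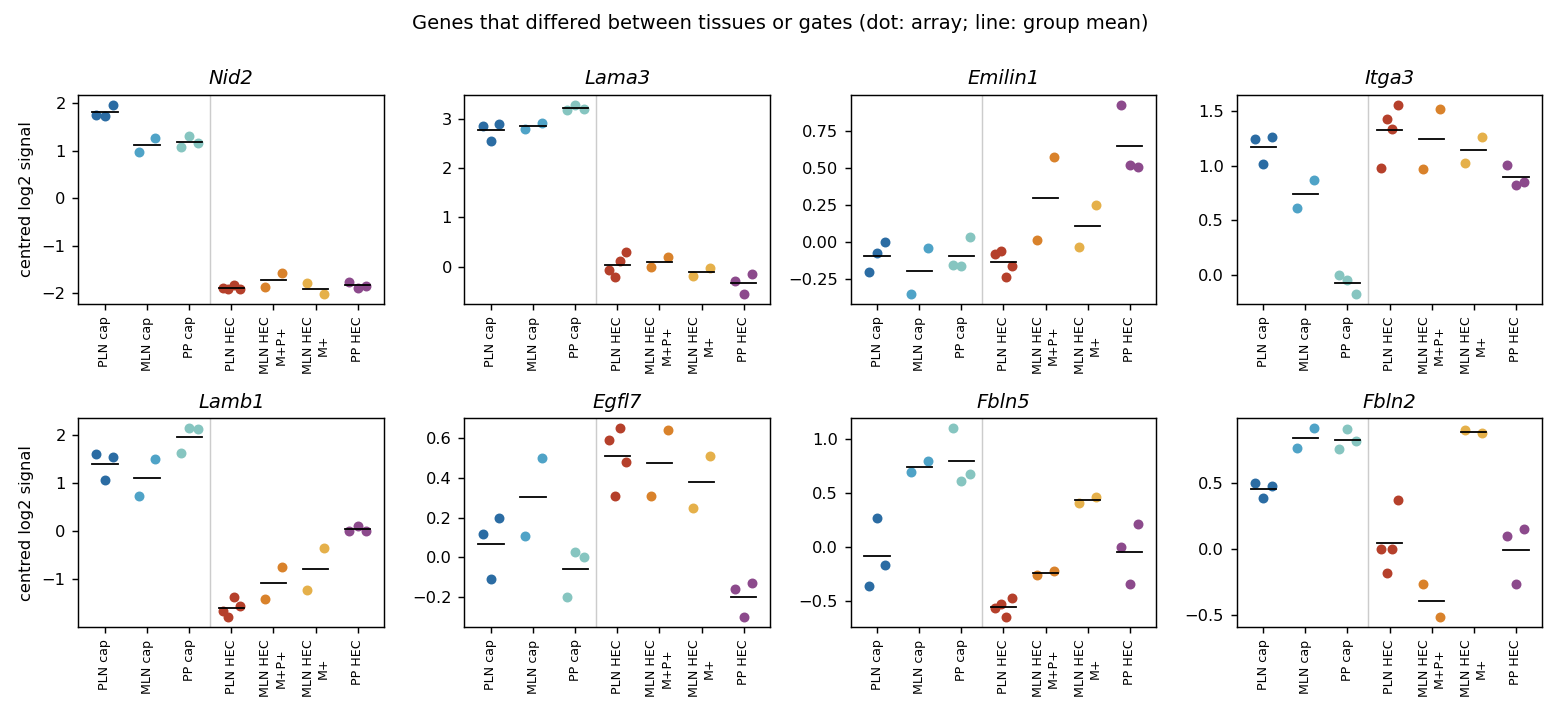
Centred log2 signal of 8 genes that differed between tissues or gates, with 1 dot for each array and a line at the group mean (PLN, MLN and PP for peripheral node, mesenteric node and Peyer's patch, cap for capillary, M+P+ for MAdCAM1+/PNAd+, M+ for MAdCAM1+). Lamb1 is highest among HEC groups in PP HEC, Itga3 is lowest in PP capillary cells, and the 2 M+ arrays of Fbln2 lie at 0.90 and 0.88.

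HEC of different tissues were then compared directly. Between Peyer's patch and peripheral HEC 7 of the 39 genes were called (6.65% of all genes), 3 higher (2.16%) and 4 lower (4.49%) in Peyer's patches. Lamb1 was the largest: it gave -1.67, -1.80, -1.37 and -1.56 on the peripheral HEC arrays and 0.00, 0.11 and 0.00 on the Peyer's patch HEC arrays. The groups were apart by 1.64 ± 0.23 or 3.11-fold (adjusted p = 0.000172), and the value was 1.57 to 1.71 with any single array left out. The mesenteric HEC arrays, at -1.42 and -0.75 (MAdCAM1+/PNAd+) and -1.24 and -0.36 (MAdCAM1+), lay below all Peyer's patch HEC arrays, and the lowest of them overlapped the peripheral ones. Lamb1 in Peyer's patch HEC exceeded mesenteric HEC by 0.98 ± 0.23 (adjusted p = 0.0435), a call lost without any of 12 arrays (0.76 to 1.20).

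Emilin1, with the values above, was higher in Peyer's patch than in peripheral HEC by 0.79 ± 0.13 (adjusted p = 0.00133). Egfl7 was lower: it gave 0.59, 0.31, 0.65 and 0.48 on the peripheral HEC arrays, 0.31, 0.64, 0.25 and 0.51 on the mesenteric ones and -0.16, -0.30 and -0.13 on the Peyer's patch ones. The differences were -0.70 ± 0.12 against peripheral HEC (adjusted p = 0.00156) and -0.62 ± 0.12 against mesenteric HEC (adjusted p = 0.0156). The second of these was lost without MAdCAM1+/PNAd+ array 2 (-0.54, adjusted p = 0.0913), MAdCAM1+ array 4 (-0.56, adjusted p = 0.0806), or Peyer's patch HEC array 1 (-0.64, adjusted p = 0.0673) or 2 (-0.57, adjusted p = 0.0788). Egfl7 and Lamb1 were the 2 genes called between Peyer's patch and mesenteric HEC (1.2% of all genes).

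The remaining calls between Peyer's patch and peripheral HEC were smaller. Lamc1 gave -0.34, -0.28, 0.10 and -0.21 on the peripheral and -0.73, -0.88 and -0.66 on the Peyer's patch HEC arrays, lower, at -0.57 ± 0.16 (adjusted p = 0.0454), so that the beta 1 and gamma 1 chain genes differed in opposite directions. Tinagl1, at -0.12, 0.02, 0.19 and -0.07 against -0.26, -0.72 and -0.27, was lower, at -0.42 ± 0.12 (adjusted p = 0.0439), Itgb4 lower, at -0.32 ± 0.08 (adjusted p = 0.0256) and Fbln5 higher by 0.51 ± 0.15 (adjusted p = 0.0487). Leaving out any of 11 arrays for Lamc1, 15 for Tinagl1, 5 for Itgb4 and 15 for Fbln5 ended these calls. On the Peyer's patch HEC arrays intestinal epithelial markers were raised, with 9 of 12 called higher than in peripheral HEC (2.16% of all genes). The part of epithelial RNA in these differences was not tested.

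Between mesenteric and peripheral HEC 1 gene was called (2.69% of all genes), Fbln5. It gave -0.56, -0.53, -0.65 and -0.47 on the peripheral HEC arrays, -0.26 and -0.22 on the MAdCAM1+/PNAd+ arrays and 0.41 and 0.46 on the MAdCAM1+ arrays. The difference was 0.65 ± 0.14 (adjusted p = 0.0132), and was lost without MAdCAM1+/PNAd+ array 2 (0.64, adjusted p = 0.0587), MAdCAM1+ array 4 (0.64, adjusted p = 0.0571) or peripheral HEC array 3 (0.62, adjusted p = 0.0511). The MAdCAM1+ arrays lay above the MAdCAM1+/PNAd+ arrays, but this gate difference of -0.68 ± 0.19 did not pass (adjusted p = 1.0).

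The 2 mesenteric gates were compared with 2 arrays each. Of the 39 genes 1 was called (0.0201% of all genes), Fbln2, which encodes a fibulin of basement membranes and elastic fibres. It gave -0.27 and -0.52 on the MAdCAM1+/PNAd+ arrays and 0.90 and 0.88 on the MAdCAM1+ arrays, a difference of -1.29 ± 0.16 or 2.45-fold (adjusted p = 0.00249). The MAdCAM1+ values lay between those of the mesenteric capillary arrays, 0.77 and 0.92, while all other HEC arrays lay at 0.37 or less. Without MAdCAM1+/PNAd+ array 2 the difference was -1.17 (adjusted p = 0.0838), in a fit where the lone array was assumed to vary like the other groups. The capillary marker list was -0.69 to -0.48 on the MAdCAM1+ arrays and -0.79 to -0.75 on the MAdCAM1+/PNAd+ arrays, against 3.37 to 4.43 on the capillary arrays, and the part of capillary cells in the Fbln2 values was not tested.

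Capillary cells also differed between tissues in a few of these genes. Between Peyer's patch and peripheral capillaries 5 were called (4.64% of all genes), 2 higher (2.4%) and 3 lower (2.24%). Itga3, with the values above, was lower in Peyer's patches, at -1.25 ± 0.15 or 2.38-fold (adjusted p = 4.6e-05). Itga2 gave 1.75, 0.94 and 1.02 on the peripheral and 0.58, 0.02 and 0.13 on the Peyer's patch arrays, lower, at -0.99 ± 0.18 (adjusted p = 0.00268), and without peripheral capillary arrays 1 and 2 by -0.78 (adjusted p = 0.0732). High endothelial markers were raised on those arrays, as given above, and their part in this difference was not tested.

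Nid2 was lower in Peyer's patch than in peripheral capillaries, at -0.63 ± 0.11 (adjusted p = 0.00116). Fbln5 gave -0.36, 0.27 and -0.17 on the peripheral and 1.10, 0.61 and 0.67 on the Peyer's patch capillary arrays, higher by 0.88 ± 0.16 (adjusted p = 0.00204). Col15a1 gave 0.54, 0.22 and 0.34 and then 0.67, 0.80 and 0.76, higher by 0.38 ± 0.10 (adjusted p = 0.0415), a call lost without any of 12 arrays. Of the 12 pericyte and smooth muscle markers, 4 were called lower (2.24% of all genes) and 1 higher (2.4%) in this comparison. Their part in these differences was not tested.

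Against mesenteric capillaries the same comparison called 2 genes (1.86% of all genes). Col15a1, with mesenteric values of 0.17 and 0.28, was higher in Peyer's patches by 0.52 ± 0.11 (adjusted p = 0.021), and this was lost without either mesenteric array (0.46 and 0.57, adjusted p = 0.266 and 0.107) or without Peyer's patch array 2 (0.49, adjusted p = 0.0948) or 3 (0.51, adjusted p = 0.0666). Itga3, with mesenteric values of 0.61 and 0.87, was lower, at -0.82 ± 0.17 (adjusted p = 0.0139), and this was lost without mesenteric array 2 (-0.69, adjusted p = 0.26) or Peyer's patch array 3 (-0.77, adjusted p = 0.0607). Between mesenteric and peripheral capillaries 1 gene was called (0.291% of all genes), Nid2, lower, at -0.69 ± 0.12 (adjusted p = 0.017), and lost without mesenteric array 1 (-0.54, adjusted p = 0.386) or peripheral array 3 (-0.62, adjusted p = 0.0545). The comparisons between tissues share groups, so the calls on Nid2, Itga3, Fbln5 and Col15a1 in several of them are not independent.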

How the data were processed

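Per the labels' protocols, amplified RNA of sorted endothelial cells was read on Affymetrix arrays of whole-transcript design. The deposited log2 values were made with RMA and Partek per the submitters' processing notes, without versions. RMA compresses large folds. An exact 0 in 54.47% of probe sets and a span of -4.092 to 6.128 show centring by probe set. Of 28856 probe sets, 21789 had 1 symbol in the platform annotation, 1621 several and 5446 none, and through assembly GRCm38.p6 21698 were matched and 0 symbols changed. Means over probe sets gave 19938 genes.

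Groups came from the titles. A model of 7 group means over 19 arrays was fitted with limma 3.58.1 (lmFit, eBayes) in R 4.3.3, with two-sided p-values adjusted by Benjamini-Hochberg over all genes for each contrast. Residual degrees of freedom were 12. Tested on simulated Peyer's patch against peripheral HEC arrays over 19938 genes, it recovered 97% of log2 changes of 1 and 100% of 2, with 10 false calls among genes left unchanged. The simulated noise was normal, with the same spread on every array for a given gene, as the fit assumes. The real Peyer's patch HEC arrays had unequal weights (4.35, 0.313 and 0.278), so these rates may not hold for them.

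Members and lists were chosen with earlier results of these data known. Named with values were members called and at least 2-fold apart, up to 5 highest and lowest per other contrast, all called in an interaction and the member nearest 0 in each role. Other members are given by differences and ranges, Lama5 after its values were seen. Alternatives were replicate blocks, each array left out, renormalization, array weights, fewer groups, probe set choice, a range filter (0.77, the 95th percentile of 1194 receptor genes), a robust prior and other array sets. No filter on signal was possible. Figures used matplotlib 3.10.9 in Python 3.11.15.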

Additional observations from a re-analysis of the deposited data

Results flagged for a closer look

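Among the 39 genes in peripheral HEC, the group of 4 arrays that could be tested for a sample far from the others, 2 had such an array, which is near the 1 in 20 that chance gives. Fbln1 on peripheral HEC array 4 was -0.39, and its gap to the next array was 0.830 of the group's range. Npnt on peripheral HEC array 1 was -0.38, with a gap of 0.892 of the range. The critical value was 0.829.

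The difference between HEC and capillary cells itself differed between tissues in the tests above for 5 gene and tissue pairs. Against peripheral nodes, in Peyer's patches it changed by -0.83 for Lama3, with the gap wider, and it was smaller or more positive for Nid2 (0.69), Emilin1 (0.79) and Itga3 (0.81). In mesenteric nodes it was smaller for Nid2 by 0.76. Nid2 and Itga3 differed between the capillary groups, and Emilin1 between the HEC groups. The labels give no batch with which to compare them.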

How the results depend on the processing

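Of 123 gene and contrast pairs called, 80 kept their call in every alternative that could test them and 43 lost it in 1 or more. One reversed: Fbln2 in mesenteric nodes was 0.05 (adjusted p = 0.956) with only MAdCAM1+ arrays as HEC, which are the arrays where it is high. Over the mean of tissues, and in Peyer's patches, no count of called genes moved by over 1.5 times.

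With single arrays left out, counts ran from 3 to 14 (Peyer's patch against peripheral HEC), 0 to 2 (mesenteric against peripheral HEC), 0 to 3 (Peyer's patch against mesenteric HEC), 0 to 2 (mesenteric against peripheral capillary), 0 to 2 (Peyer's patch against mesenteric capillary), 2 to 6 and 0 to 1 (interactions of Peyer's patch and mesenteric with peripheral nodes) and 0 to 1 (gates). The 14 was without Peyer's patch HEC array 3. In the order of contrasts just given, array quality weights called 19 for the first, 6 for the third, 2 for the fourth and 12 for the interaction of Peyer's patch with peripheral nodes, besides 8 for Peyer's patch against peripheral capillary and 2 for the interaction of Peyer's patch with mesenteric nodes. Calls over all 19938 genes rose too, from 1326 to 7192 for the first and from 808 to 3975 for that interaction with peripheral nodes, and Peyer's patch HEC arrays had weights of 4.35, 0.313 and 0.278. Fits of only the compared groups called 4, 0 and 3 (Peyer's patch against peripheral HEC, against mesenteric HEC, and against peripheral capillary), 0 and 1 (mesenteric against peripheral and Peyer's patch against mesenteric capillary), 0 (mesenteric interaction) and 0 (gates). Quantile normalization again gave 1, 3 and 0 (Peyer's patch against mesenteric HEC, mesenteric against peripheral capillary, mesenteric interaction), and the range filter 2 and 0 (mesenteric against peripheral capillary, mesenteric interaction). Without peripheral capillary arrays 1 and 2 counts were 14 (peripheral nodes), 1, 3 and 0 (Peyer's patch against mesenteric HEC, Peyer's patch and mesenteric against peripheral capillary) and 1 and 0 (Peyer's patch and mesenteric interactions). With only MAdCAM1+/PNAd+ arrays as mesenteric HEC they were 0 and 1 (mesenteric against peripheral HEC, Peyer's patch against mesenteric HEC), and with only MAdCAM1+ arrays 3, 1 and 0 (these and the mesenteric interaction). The causes were not tested. Each of these counts, and those with replicate blocks below, also depends on how many of all genes the same fit called. That number is given only for some of the array weight counts here and for some fits further up. A lower count therefore does not show that these genes held less well than others.

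Replicate numbers were not taken to pair the arrays, since no tissue with 3 numbers had every correlation above 0.1. Deviations of same-numbered arrays correlated at 0.44 (mesenteric, 1 value because 2 arrays mirror each other), 0.0839, 0.376 and -0.196 (peripheral) and -0.11, 0.065 and -0.397 (Peyer's patch). With the number as a replicate block, counts fell to 3 and 1 (Peyer's patch against peripheral and mesenteric HEC), 1 (Peyer's patch against mesenteric capillary), 0 (mesenteric interaction) and 0 (gates), and a block within tissue gave 0 for the mesenteric interaction. No bound at background could be set, since signal levels are unknown.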
